A study of Mus musculus with 9 samples.

Results

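The genes described here are 10 SOX transcription factors of neural and neural crest development: Sox1 and Sox3 (subgroup SoxB1), Sox21 (SoxB2), Sox4 and Sox11 (SoxC), Sox5 and Sox6 (SoxD), and Sox8, Sox9 and Sox10 (SoxE). They are a list drawn from these subgroups and matched by symbol, 10 of the 48440 genes in the count tables, and leave out Sox2, Sox12, Sox13 and Sox14 of the same subgroups, which are given as other Sox genes below. All 9 RNA libraries came from J1 mouse embryonic stem cells with the genotype Suz12-AID, grown on gelatin in medium with serum, LIF and the inhibitors PD0325901 and CHIR99021 (2i), so the Mock cells carry the tagged allele too. AID is a degron tag through which auxin (indole-3-acetic acid) directs a protein to destruction, and Suz12 belongs to the core of PRC2, the Polycomb repressive complex that methylates histone H3. The 3 groups of 3 biological replicates were Mock (no auxin), Auxin (50 µM for 96 h) and Reintroduction (auxin then washed out for 4.5 h). The labels do not say how many clones were used, and name no untagged line among these groups. Suz12 protein was not analysed here, so the groups are named by treatment.

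SOX factors bind DNA through a high-mobility-group (HMG) box and usually act with a partner factor, often of the POU family. SoxB1 factors hold neural progenitors in an undifferentiated state and the SoxB2 factor Sox21 counteracts them, SoxC factors act as neurons mature, SoxD factors lack an activation domain of their own and modify the action of others, and SoxE factors specify neural crest, glia and cartilage. In embryonic stem cells many such developmental regulators have CpG-rich promoters that carry the PRC2 mark, trimethylated lysine of histone H3, and are transcribed little.

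The promoter windows of 4 of the 7 Sox genes that had one are shown because CpG content is the sequence feature most closely tied to PRC2 promoters. Each holds 250 bases before and 50 after an annotated start, from RefSeq on GRCm38.p6 (the build also called mm10), on the gene's own strand and 5′ to 3′, with every CG in capitals. All 4 genes lie on the minus strand. The windows are chr7:116038695-116038994 for Sox6 (the most upstream of its starts), chr14:118236981-118237280 for Sox21, chr12:27342669-27342968 for Sox11 and chr13:28953650-28953949 for Sox4.
Sox6: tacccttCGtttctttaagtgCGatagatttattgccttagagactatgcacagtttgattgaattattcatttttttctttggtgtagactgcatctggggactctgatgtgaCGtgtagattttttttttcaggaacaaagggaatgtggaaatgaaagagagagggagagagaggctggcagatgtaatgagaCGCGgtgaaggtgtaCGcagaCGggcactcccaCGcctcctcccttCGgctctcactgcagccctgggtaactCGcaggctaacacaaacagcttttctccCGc
Sox21: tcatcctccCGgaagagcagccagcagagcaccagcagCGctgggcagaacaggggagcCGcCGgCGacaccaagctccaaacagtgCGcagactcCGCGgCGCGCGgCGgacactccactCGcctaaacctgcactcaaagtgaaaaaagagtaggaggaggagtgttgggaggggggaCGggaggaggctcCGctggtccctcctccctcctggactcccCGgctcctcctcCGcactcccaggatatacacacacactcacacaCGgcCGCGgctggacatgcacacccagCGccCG
Sox11: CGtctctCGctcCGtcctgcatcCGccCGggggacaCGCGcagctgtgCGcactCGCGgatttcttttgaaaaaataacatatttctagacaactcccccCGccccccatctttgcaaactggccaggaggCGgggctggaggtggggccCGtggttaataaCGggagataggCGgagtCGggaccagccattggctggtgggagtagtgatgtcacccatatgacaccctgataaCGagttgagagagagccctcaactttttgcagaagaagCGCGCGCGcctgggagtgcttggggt
Sox4: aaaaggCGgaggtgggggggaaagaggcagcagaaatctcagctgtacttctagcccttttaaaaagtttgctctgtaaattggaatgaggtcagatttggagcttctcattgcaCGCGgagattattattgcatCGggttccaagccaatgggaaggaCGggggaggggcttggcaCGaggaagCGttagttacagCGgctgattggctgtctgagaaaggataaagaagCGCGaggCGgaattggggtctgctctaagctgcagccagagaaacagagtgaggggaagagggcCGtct
The motif searched was CG, which reads the same on both strands. Sox6 had 11 CG dinucleotides, Sox21 had 22, Sox11 had 21 and Sox4 had 12, against a median of 7 over 32851 windows of the same length, of which 94.6% held at least 1. Of all windows, 41.4% held at least as many as Sox6, 23.1% as many as Sox21, 24.8% as many as Sox11 and 39.6% as many as Sox4. Sox1 (37 CG) and Sox8 (21) were also above the median, and the Sox5 window in the table, which lies inside the gene at chr6:143947057-143947356, held 3. The other 5 Sox6 windows in the table, at starts inside the gene, held 13, 2, 2, 4 and 2, so that 4 of the 6 were below the median. In all, 7 of the 10 genes matched the table, and no window was available for Sox3, Sox9 and Sox10.

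The libraries held between 44341283 and 113931419 counted mates, and replicates of a group correlated at 0.989 or more across genes. All 8 pluripotency markers, Sox2 among them, were tested and present. Their summed level was 5542.8 to 5667.8 CPM in Mock, 6782.6 to 7286.8 in Auxin and 5310.2 to 5408.7 in Reintroduction. The markers did not all move with the sum. In Auxin against Mock 6 of the 8 were called higher and 2 lower (38.4% and 34.8% over all tested genes). Of those lower, Pou5f1 went from 843.7 ± 58.3 CPM in Mock to 583.0 ± 48.8 in Auxin (SD, n = 3). CPM are read counts scaled to the library total times its TMM normalisation factor. Summed primitive endoderm markers spanned 5.84 to 7.04 CPM in Mock, 19.3 to 20.4 in Auxin and 13.0 to 14.4 in Reintroduction. Mesoderm markers spanned 12.5 to 13.3, 1.1 to 1.64 and 2.38 to 3.04 CPM, trophoblast markers, nearly all Eomes, 36.1 to 38.0, 25.2 to 28.0 and 66.8 to 70.1 CPM, and fibroblast markers, nearly all Thy1, 17.8 to 20.0, 39.1 to 46.4 and 37.4 to 38.8 CPM. In Auxin against Mock, 6 of 6 tested primitive endoderm markers were called higher, and of 4 tested mesoderm markers 0 were higher and 2 lower. Of 3 tested fibroblast markers 1 was higher and 1 lower, and of 4 tested trophoblast markers 2 were higher and 2 lower. Over all tested genes 38.4% were called higher and 34.8% lower in that comparison. The median log2 fold change of the trophoblast markers was 0.87, against the fall in their sum. Within the fibroblast list, Col3a1, Dcn and Lum were at 0 in every Auxin library. Suz12 mRNA, which the degron does not target, had a log2 fold change of 0.09 ± 0.0802 (SE) in Auxin against Mock (edgeR quasi-likelihood test, adjusted p = 0.349), and -0.23 with the length trend removed (adjusted p = 0.0103). It was called higher with total counts (0.30, adjusted p = 0.01) and without Auxin replicate 2 (0.18, adjusted p = 0.00403). In Reintroduction Suz12 was higher than in Auxin (0.25, edgeR adjusted p = 0.0245) and than in Mock (0.33, edgeR adjusted p = 0.00341). The rise over Auxin was lost in 7 alternatives, among them leaving out Reintroduction replicate 1 (adjusted p = 0.0711), 2 (0.0773) or 3 (0.0628), and that over Mock turned to -0.21 with length and GC trends removed. The relation of level to gene length also differed between groups, with a slope per doubling of length of -0.246 to -0.168 log2 units in Mock, 0.013 to 0.154 in Auxin and 0.083 to 0.097 in Reintroduction. The part of the marker and length shifts in the results below was not tested, except where a fit with the length trend removed is given. In bulk RNA, fewer cells of a type and less RNA per cell cannot be told apart.

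Sox levels did not move in 1 direction when auxin was added. In Auxin against Mock, Sox6, Sox21 and Sox5 were higher and Sox3 and Sox11 were lower, while Sox1, Sox4 and Sox8 did not pass the test (edgeR quasi-likelihood test, adjusted p under 0.05 over all genes tested). That is 5 of the 8 genes with enough counts to test, in a comparison in which 73.2% of all 20838 tested genes were called (38.4% higher and 34.8% lower). In Reintroduction against Auxin, Sox1, Sox4 and Sox11 were higher and Sox3, Sox6 and Sox21 lower, 6 of 8 against a background of 50.9% (25.5% higher and 25.5% lower). In Reintroduction against Mock, Sox4, Sox6, Sox11 and Sox21 were higher and Sox3 lower, 5 of 8 against 68.1% (34.7% higher and 33.4% lower). The comparison of Reintroduction with Auxin is called the washout step below. At the washout step the count was 3 of 8 without Auxin replicate 1. Counting only calls of 2-fold or more, 3 of 8 remained in Auxin against Mock (background 31.8%), 2 at the washout step (11.0%) and 3 in Reintroduction against Mock (22.4%). Their median log2 fold changes were 0.0, -0.32 and 0.22, beside 0.05, 0.003 and 0.026 over all genes. The 3 comparisons share libraries and are not independent.

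**Figure D1:**
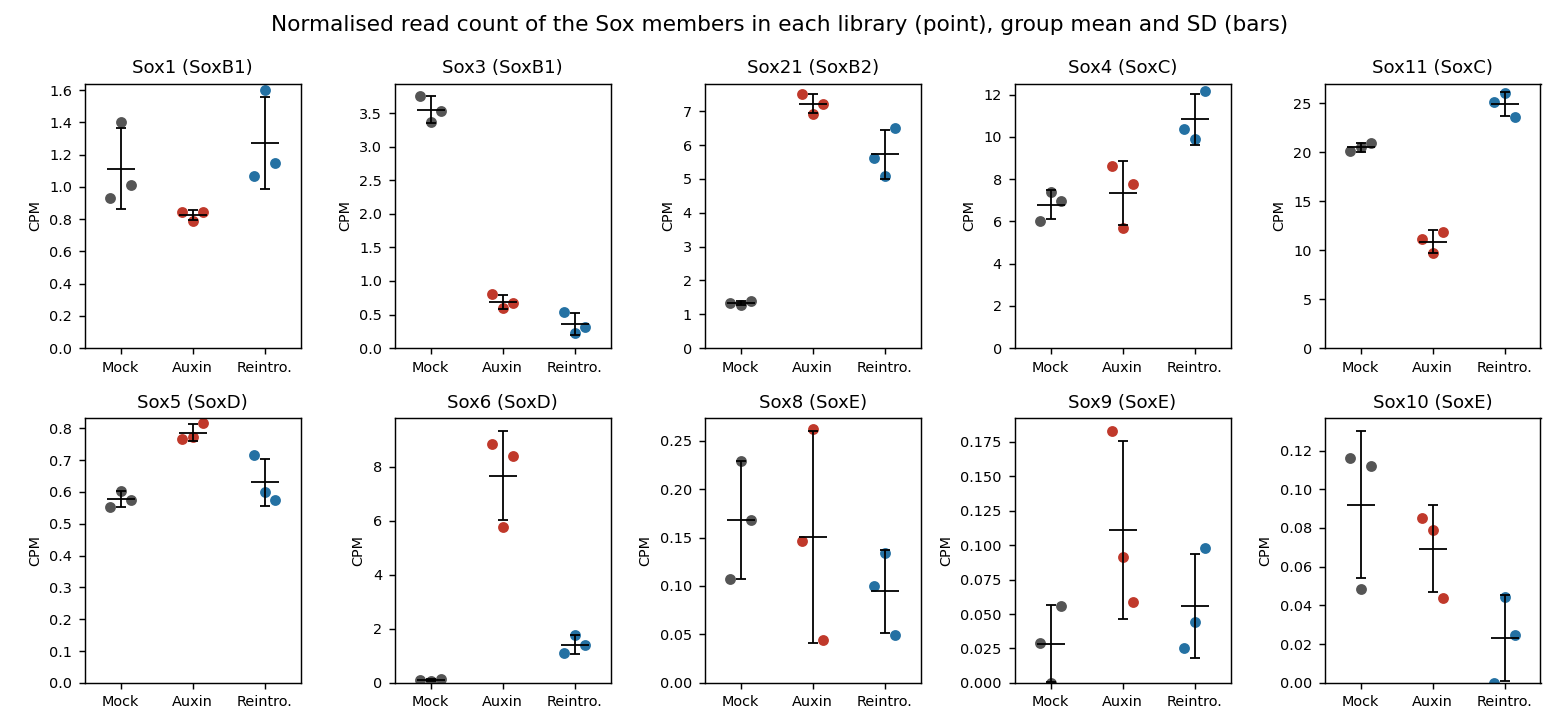
Normalised read count (CPM, linear axis from 0) of each Sox gene in the 9 libraries, 1 panel a gene; points are libraries, the long bar is the group mean and the error bar 1 SD (n = 3). Sox6 and Sox21 stand higher in every Auxin library than in Mock, Sox3 stands lower in Auxin and lowest in Reintroduction, and Sox11 is lowest in Auxin.

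**Figure D2:**
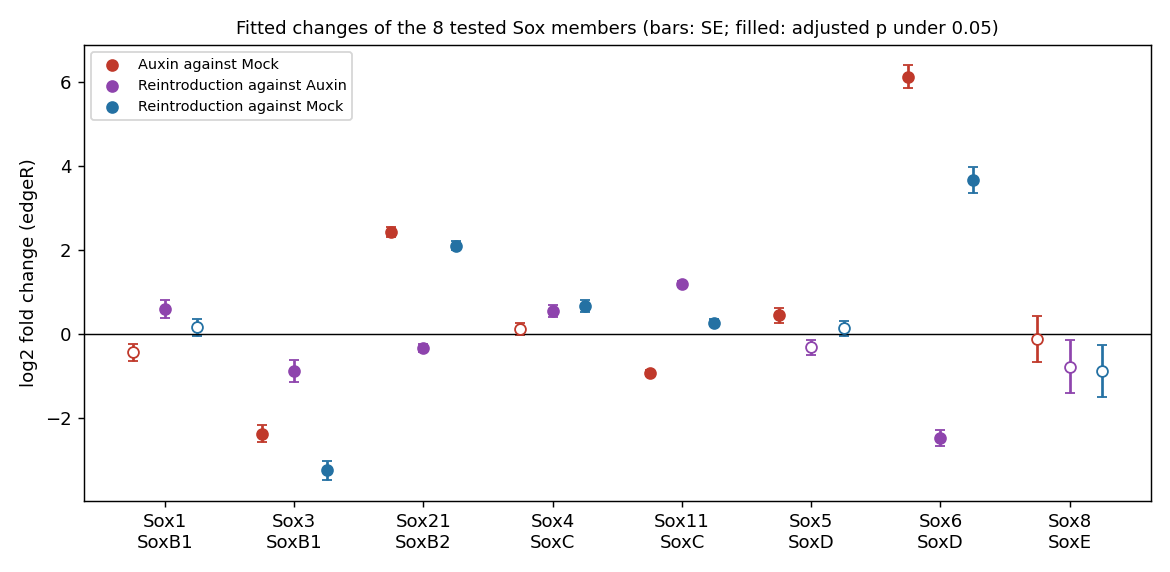
Log2 fold change from the edgeR fit (vertical axis) for the 8 tested Sox genes in the 3 comparisons; bars are standard errors and filled points have an adjusted p under 0.05. Sox6 has the value farthest from 0, 6.12 in Auxin against Mock, and Sox3 is the gene called lower in all 3 comparisons.

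Sox3 and Sox1 are SoxB1 factors, expressed in the neural plate and in progenitors of the nervous system. Sox3 (ENSMUSG00000045179.9, mm10 chrX:60891366-60893430, minus strand, 1 exon) stood at 3.76, 3.36 and 3.53 CPM in the Mock libraries, 0.805, 0.59 and 0.672 in Auxin and 0.54, 0.223 and 0.319 in Reintroduction. No library of one group overlapped another group. Sox3 fell 5.13-fold in Auxin against Mock (log2 fold change -2.36 ± 0.207, edgeR adjusted p = 1.13e-06). It was lower again in Reintroduction than in Auxin (-0.87 ± 0.26, edgeR adjusted p = 0.0159), which left it 9.37-fold below Mock (-3.23 ± 0.229, edgeR adjusted p = 4.50e-07). The fall from Auxin to Reintroduction lost its call without Auxin replicate 1 (-0.75, adjusted p = 0.0588) or without Reintroduction replicate 3 (-0.76, adjusted p = 0.0673).

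Sox1 (ENSMUSG00000096014.1, chr8:12395295-12400126, plus strand, 1 exon) did not follow Sox3. Its levels were 0.932, 1.40 and 1.01 CPM in Mock libraries, 0.842, 0.787 and 0.847 in Auxin libraries and 1.07, 1.60 and 1.15 in Reintroduction libraries. Every Auxin library was below every library of the other groups, while Mock and Reintroduction overlapped. The log2 fold change of -0.43 ± 0.209 in Auxin against Mock did not pass the test (edgeR adjusted p = 0.0859), and passed it at -0.73 with the length trend removed (adjusted p = 0.0065), at -0.59 with length and GC trends removed (0.027) and at -0.56 without Mock replicate 1 (0.0472). The rise in Reintroduction against Auxin was 0.60 ± 0.212 (edgeR adjusted p = 0.035). That call was lost in 7 of 16 alternatives, among them leaving out Auxin replicate 1 (adjusted p = 0.0782), 2 (0.0685) or 3 (0.0633) and Reintroduction replicate 2 (0.125) or 3 (0.0567).

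Sox2, the SoxB1 factor of pluripotent cells and no member of the 10, set the scale of this subgroup. Per exon length, in RPKM (the CPM divided by the joined exon length in kilobases), Sox2 averaged 181.9 in Mock, 364.4 in Auxin and 219.8 in Reintroduction, beside 1.72, 0.334 and 0.174 for Sox3 and 0.23, 0.171 and 0.264 for Sox1. Sox3 exceeded Sox1 per length 9.43, 5.61 and 8.19 times in the Mock libraries and 2.24, 1.75 and 1.86 times in Auxin. In Reintroduction the ratio was 1.18, 0.325 and 0.647, so that Sox3 was below Sox1 in all but 1 library.

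Sox21, a SoxB2 repressor that promotes exit from the progenitor state, moved opposite to Sox3 in Auxin against Mock and was called lower, as Sox3 was, at the washout step. The gene (ENSMUSG00000061517.8, chr14:118233232-118237030, minus strand, 1 exon) had 1.34, 1.27 and 1.40 CPM in Mock, against 7.5, 6.93 and 7.22 in Auxin and 5.61, 5.08 and 6.51 in Reintroduction. The 3 groups did not overlap, and Auxin was highest. Sox21 rose 5.4-fold in Auxin against Mock (log2 fold change 2.43 ± 0.11, edgeR adjusted p = 5.96e-09) and remained above Mock in Reintroduction (2.11 ± 0.111, edgeR adjusted p = 5.34e-08). The step down from Auxin to Reintroduction was -0.33 ± 0.0987 (edgeR adjusted p = 0.0173). It lost its call without Auxin replicate 1 (-0.31, adjusted p = 0.0523), without Reintroduction replicate 1 (-0.32, 0.0533) or 2 (-0.25, 0.0707), and with length and GC trends removed (-0.18, 0.146). Per length, Sox21 was 0.194, 0.205 and 0.216 times Sox3 in Mock and 5.07, 6.38 and 5.84 times Sox3 in Auxin. The Reintroduction ratios of 5.65, 12.4 and 11.1 overlapped those of Auxin.

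**Figure D3:**
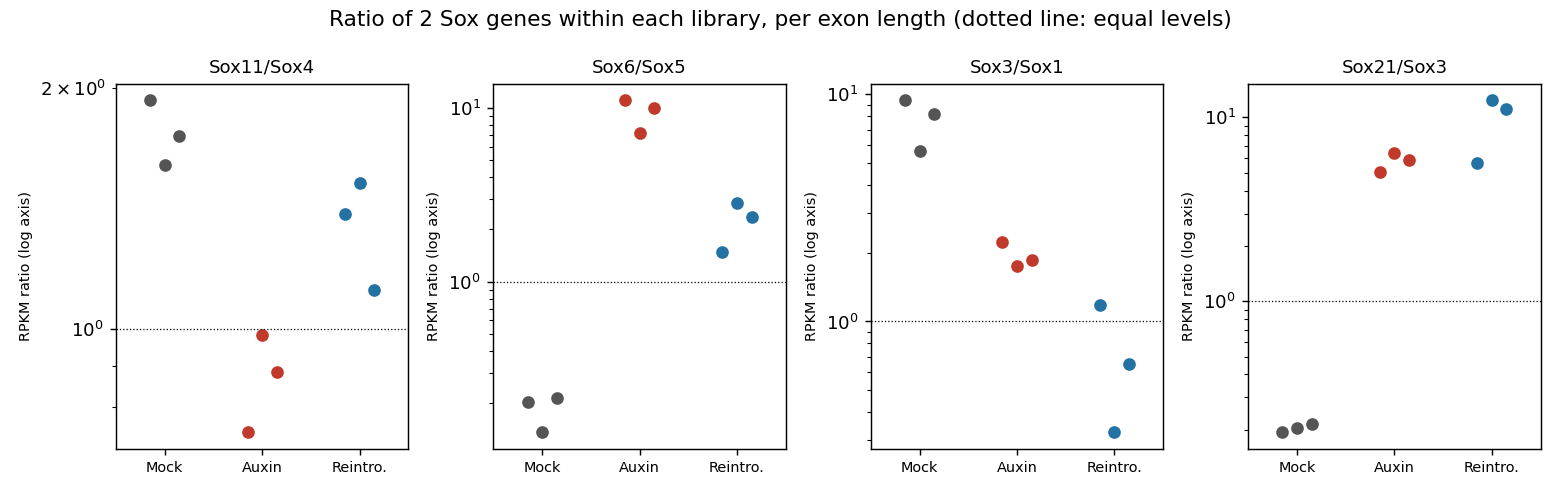
Ratio of RPKM between a pair of Sox genes in each library (points, log axis; the dotted line marks equal levels), by group. Sox21 against Sox3 and Sox6 against Sox5 cross from below 1 in Mock to above 1 in Auxin, Sox11 against Sox4 falls below 1 in the 3 Auxin libraries, and Sox3 against Sox1 is lowest in Reintroduction.

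The SoxC pair, Sox4 and Sox11, are activators of neuronal genes. Sox11 (ENSMUSG00000063632.6, chr12:27334264-27342574, minus strand, 1 exon) had 20.1, 20.5 and 21.0 CPM in Mock, then 11.1, 9.67 and 11.9 with auxin and 25.1, 26.1 and 23.6 after washout. Auxin was lowest and Reintroduction highest, with no overlap. Sox11 fell 1.89-fold in Auxin against Mock (log2 fold change -0.92 ± 0.0771, edgeR adjusted p = 7.87e-07). It then rose 2.29-fold in Reintroduction against Auxin (1.2 ± 0.0775, edgeR adjusted p = 4.18e-07). Its position relative to Mock depended on the length correction: it was 0.28 ± 0.0753 higher as fitted (edgeR adjusted p = 0.00671), and lower by -0.19 with the length trend removed (adjusted p = 0.0206) and by -0.18 with length and GC trends removed (0.022).

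Sox4 (ENSMUSG00000076431.4, chr13:28948919-28953713, minus strand, 1 exon) had 6.03, 7.38 and 6.98 CPM in Mock libraries, 8.61, 5.68 and 7.76 in Auxin libraries and 10.4, 9.89 and 12.2 in Reintroduction libraries. Mock and Auxin overlapped, and every Reintroduction library was above both. The log2 fold change was 0.12 ± 0.146 in Auxin against Mock (edgeR adjusted p = 0.489), which passed the test only without Auxin replicate 2 (0.27, adjusted p = 0.0342) and turned to -0.02 without Auxin replicate 1, -0.18 with the length trend removed and -0.13 with length and GC trends removed. Sox4 rose in Reintroduction against Auxin (0.56 ± 0.145, edgeR adjusted p = 0.00736) and against Mock (0.68 ± 0.145, edgeR adjusted p = 0.00154). Sox11 stood 1.93, 1.6 and 1.74 times above Sox4 per length in Mock. The ratio was 0.743, 0.982 and 0.883 in Auxin, where Sox11 was below Sox4 in every library, and 1.39, 1.52 and 1.12 in Reintroduction.

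Over 7 such ratios and the 3 comparisons (21 tests), the exact two-sided permutation test gave p = 0.1 in 18, the smallest value that 3 against 3 libraries allow, with p = 0.117 after Benjamini-Hochberg adjustment over the 21 tests. No ratio could therefore pass 0.05.

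Of the SoxD pair, which join through a coiled coil and act in cartilage, oligodendrocytes and cortical neurons, Sox6 carried the change with the greatest fold among the 8 tested Sox genes. Sox6 (ENSMUSG00000051910.13, chr7:115470872-116038796, minus strand, 25 merged exons) had 12, 7 and 9 counts in the Mock libraries, or 0.116, 0.0845 and 0.126 CPM. The level was 8.83, 5.77 and 8.41 CPM in Auxin and 1.09, 1.76 and 1.41 CPM in Reintroduction. The 3 groups did not overlap, and the lowest Auxin value was in replicate 2, the Auxin library with the flattest length slope. That library was also the lowest of the Auxin group for Sox1, Sox3, Sox4, Sox11 and Sox21. A link to the slope was not tested. Sox6 rose 69.5-fold in Auxin against Mock (log2 fold change 6.12 ± 0.273, edgeR adjusted p = 5.40e-09), with 5.35 to 6.33 over 16 alternatives. Within 4.5 h of washout it was 5.51-fold lower than in Auxin (-2.46 ± 0.197, edgeR adjusted p = 1.96e-06) and still 12.6-fold above Mock (3.66 ± 0.312, edgeR adjusted p = 1.74e-06). The 69.5-fold and 12.6-fold values rest on the few Mock counts, in which each mate was counted. Their size is therefore less certain than their direction. With the length trend removed the rise in Auxin was 5.35 and the remaining difference from Mock 2.93, and with length and GC trends removed they were 5.37 and 2.97.

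Sox5 (ENSMUSG00000041540.16, chr6:143828425-144781977, minus strand, 25 merged exons) stayed low. It had 0.553, 0.604 and 0.574 CPM in Mock, against 0.768, 0.774 and 0.818 in Auxin and 0.715, 0.601 and 0.576 in Reintroduction. Auxin was above both other groups in every library, and those overlapped. The rise in Auxin against Mock was 0.45 ± 0.173 (edgeR adjusted p = 0.0359), and this call was lost or the direction turned in 11 of 15 alternatives. Leaving out Mock replicate 1, 2 or 3 gave adjusted p = 0.105, 0.0641 and 0.0829, leaving out Auxin replicate 1, 2 or 3 gave 0.0724, 0.0763 and 0.0933, and with the length trend removed the value was -0.29. Sox5 did not pass the test in Reintroduction against Auxin (-0.31, edgeR adjusted p = 0.164) or against Mock (0.14, edgeR adjusted p = 0.517), and the latter turned to -0.57 with the length trend removed (adjusted p = 0.0235) and -0.61 with length and GC trends removed (0.0164). Per length, Sox6 was 0.204, 0.136 and 0.213 times Sox5 in Mock, 11.1, 7.23 and 9.97 times in Auxin and 1.48, 2.84 and 2.37 times in Reintroduction.

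The SoxE genes, which specify neural crest and its glia, were near the limit of detection in all 9 libraries. Sox8 (ENSMUSG00000024176.10, chr17:25565892-25570686, minus strand, 3 merged exons) had 11, 19 and 12 counts in Mock, then 12, 20 and 3 with auxin and 8, 6 and 4 after washout. Fitted log2 fold changes of -0.11 with auxin, -0.77 at the washout step and -0.88 between Reintroduction and Mock did not pass the test (edgeR adjusted p = 0.861, 0.335 and 0.221). Sox9 (ENSMUSG00000000567.5, chr11:112782224-112787760, plus strand, 3 merged exons), also the master regulator of cartilage, had 3, 0 and 4 counts in Mock libraries, 15, 7 and 4 in Auxin libraries and 2, 2 and 8 in Reintroduction libraries. Sox10 (ENSMUSG00000033006.9, chr15:79154913-79164490, minus strand, 4 merged exons), a regulator of Schwann cells and oligodendrocytes, had 12, 4 and 8 counts in Mock, against 7, 6 and 3 in Auxin and 0, 2 and 2 in Reintroduction. Sox9 and Sox10 had too few counts for the test, and a count of 0 allows up to 0.0362 CPM of Sox9 in Mock replicate 2 and 0.0376 CPM of Sox10 in Reintroduction replicate 1 (3 counts, counting error only). Each mate was counted, so limits based on independent fragments would be higher. With no filter on low counts, Sox9 had 1.96 ± 0.882 in Auxin against Mock (edgeR adjusted p = 0.0733) and Sox10 had -2.11 ± 0.931 in Reintroduction against Mock (edgeR adjusted p = 0.073). Changes of these genes were not detectable at this depth.

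Ordered by RPKM among themselves and Sox2, with the other Sox genes left aside, the 10 genes changed places between groups. In Mock the order below Sox2 was Sox11 (2.47), Sox3 (1.72), Sox4 (1.42), Sox21 (0.351) and Sox1 (0.23), each above the next in every library. Sox8 (0.0539), Sox5 (0.0401) and Sox10 (0.034) followed, each overlapping its neighbour, and Sox6 (0.00735) overlapped Sox9 (0.00686) at the bottom. In Auxin Sox21 came next after Sox2 (1.9), followed by Sox4 (1.53) and Sox11 (1.31), which overlapped, then Sox6 (0.517) and Sox3 (0.334), which overlapped, then Sox1 (0.171). In Reintroduction the order was Sox11 (3.0), Sox4 (2.26) and Sox21 (1.51) without overlap, then Sox1 (0.264), Sox3 (0.174) and Sox6 (0.0958), of which each overlapped the next. Sox5, Sox8, Sox9 and Sox10 lay below these in both groups, again with overlaps between neighbours. The length used joins all exons of a gene, which lowers the RPKM of genes with many alternative exons such as Sox5 and Sox6.

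**Figure D4:**
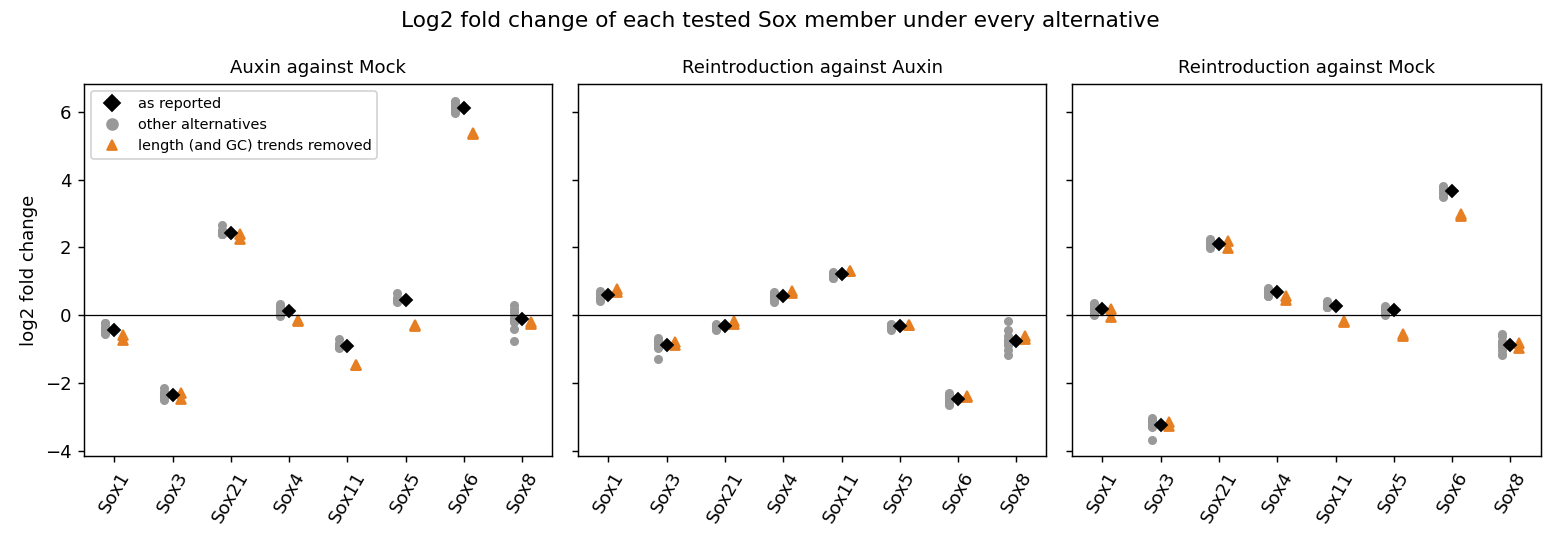
Log2 fold change of the 8 tested Sox genes (vertical axis) in each comparison, as reported (diamonds), with the length trend or the length and GC trends removed (triangles) and under the other alternatives (circles). The values of Sox3, Sox6 and Sox21 keep their sign throughout. When the length trend is removed, Sox4 and Sox5 cross 0 in Auxin against Mock, and Sox1, Sox5 and Sox11 in Reintroduction against Mock.

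The rest of the family gives the setting. Of the 10 other Sox genes 7 were tested, with 4 higher and 3 lower in Auxin against Mock, 3 higher and 4 lower at the washout step, and 2 higher and 1 lower when Reintroduction was set against Mock. Over all tested genes 73.2%, 50.9% and 68.1% were called in these comparisons, and the same shares apply to the lists below. Sox7, Sox17, Sox30 and Sox2 rose in Auxin against Mock and fell after washout. Sox7, an endoderm and endothelial factor, had log2 fold changes of 3.34, -1.18 and 2.15 with auxin, at the washout step and between Reintroduction and Mock. The endoderm factor Sox17 had 2.38, -1.76 and 0.62, and Sox30, a factor of sperm development, had 2.57, -1.85 and 0.72, of which the last value of each did not pass the test. Sox2 had 1.0, -0.73 and 0.27. Sox17 is itself on the list of primitive endoderm markers. The sum of these markers moved beside Sox7, and their part was not tested. Sox15, Sox13 and Sox12 fell and then rose: Sox15 had -2.63, 0.68 and -1.95, the SoxD gene Sox13 had -0.8, 0.89 and 0.09, and the SoxC gene Sox12 had -0.51, 0.53 and 0.01, of which the last values of Sox13 and Sox12 did not pass and turned to -0.09 and -0.18 with the length trend removed. Sox12 thus moved with Sox11 in the first 2 comparisons, and Sox13 moved opposite to Sox6. Sox14, Sox18 and Sry were too low to test, with Sry at 0 in all 9 libraries.

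Neural progenitor genes were mixed, with 6 of 13 tested higher and 5 lower in Auxin against Mock, 4 and 4 at the washout step, and 6 and 2 in Reintroduction against Mock. Their median log2 fold changes were 0.09, 0.22 and 0.08, beside the medians over all genes given above. Otx2, a forebrain and epiblast homeobox factor, went from 6.0 ± 0.102 CPM in Mock to 50.6 ± 2.56 in Auxin and 45.3 ± 1.6 in Reintroduction (SD, n = 3), a log2 fold change of 3.08 in Auxin against Mock (edgeR adjusted p = 7.13e-11). Zic2, a zinc finger factor of the early neural plate, went from 22.0 ± 1.05 to 58.3 ± 3.02 and 43.6 ± 1.07 CPM. Vim, the intermediate filament vimentin, fell and rose again as Sox11 did, with 180.0 ± 9.62, 32.8 ± 2.01 and 140.5 ± 4.34 CPM (-2.45 in Auxin against Mock and 2.1 in Reintroduction against Auxin). Msi1, an RNA-binding protein of neural stem cells, fell by 0.89 in Reintroduction against Auxin, Ncam1, a neural adhesion molecule, fell by 0.62, and Prom1 was 0.65 above Mock in Reintroduction. Of 11 neuronal genes 3 were higher and 4 lower in Auxin against Mock, 3 and 2 at the washout step and 3 and 5 in Reintroduction against Mock, with medians of -0.36, -0.05 and -0.17. Nefl, a neurofilament subunit, rose by 1.12 in Auxin against Mock, Map2 by 1.36 and Mapt by 0.55. With the length trend removed Map2 was 0.57, and 0.64 with length and GC trends removed. Mapt was 0.04 with the length trend removed (adjusted p = 0.665) and 0.12 with length and GC trends removed (0.0527). Mapt then fell by 1.05 after washout, while Nefl and Nefm were 0.37 and 1.57 higher than in Auxin. Stmn2, a tubulin-binding protein of growing axons, was 0.68 below Mock in Reintroduction, at 142.5 ± 5.22 against 228.5 ± 12.2 CPM (-1.30 with length and GC trends removed). Dcx, a marker of migrating neurons, was at 0 in all 9 libraries.

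Among POU factors, the partners of SOX proteins, 1 of 6 tested rose and 3 fell in Auxin against Mock, 1 rose and 5 did not pass at the washout step, and 1 rose and 3 fell in Reintroduction against Mock, with medians of -0.39, 0.29 and 0.04. Pou3f1, a factor of epiblast and neural progenitors, followed Sox3 in the first of these, from 1.3 ± 0.269 to 0.229 ± 0.0609 CPM (-2.52, edgeR adjusted p = 1.09e-05), and stood at 0.362 ± 0.123 in Reintroduction. Pou5f1, the pluripotency partner of Sox2, fell by 0.53 in Auxin and was 0.55 below Mock in Reintroduction. Pou4f1 fell by 0.25 in Auxin, a call lost in 8 alternatives, among them leaving out Mock replicate 1 (adjusted p = 0.099) or 3 (0.0961) or Auxin replicate 1 (0.0732) or 2 (0.109), and Pou2f1 was 0.92 above Mock in Reintroduction, or 0.16 with the length trend removed (adjusted p = 0.155) and 0.07 with length and GC trends removed (0.486). Pou3f4 rose by 1.32 after washout (edgeR adjusted p = 0.0378), a call lost without Auxin replicate 2 (adjusted p = 0.0652) or 3 (0.115), without Reintroduction replicate 2 (0.12) or 3 (0.0825) and with the replicate number as a block (0.0562).

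Of 12 tested neural crest genes 8 were higher and 1 lower in Auxin against Mock, with a median of 1.18. At the washout step 1 was higher and 5 lower (median -0.58), and in Reintroduction against Mock 5 were higher and 2 lower (median 0.34). Tfap2c, an AP-2 factor also active in trophoblast and germ cells, went from 27.2 ± 0.651 CPM in Mock to 86.6 ± 4.13 in Auxin and 45.0 ± 2.24 in Reintroduction. Its relative Tfap2a went from 9.23 ± 0.568 to 23.8 ± 0.234 and 25.1 ± 0.506 CPM. Ngfr, the p75 neurotrophin receptor, also fell and rose again, at 37.4 ± 1.15, 15.8 ± 0.835 and 41.8 ± 1.72 CPM. Of the zinc finger repressors of E-cadherin, Snai1 fell by 1.24 after washout and Snai2 was 1.44 above Mock in Reintroduction.

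Genes known as targets of the SoxE factors were examined because Sox9 and Sox10 themselves were too low to test. Of 8 tested glial genes, which include known Sox10 targets, 2 were higher and 5 lower in Auxin against Mock, 2 and 2 at the washout step and 2 and 4 in Reintroduction against Mock, with medians of -0.53, 0.09 and -0.31. Mbp, myelin basic protein, rose by 3.12 in Auxin, from 0.481 ± 0.175 to 4.27 ± 0.549 CPM, and was 2.32 above Mock in Reintroduction. Cnp fell by 1.33 and Myrf, a factor of myelination, by 0.75 in Auxin, and Cnp still differed from Mock by -1.29 in Reintroduction. Erbb3, a neuregulin receptor, rose by 1.23 after washout to 65.4 ± 3.92 CPM, 0.91 above Mock, while Mag rose by 0.93. Of 9 tested cartilage genes, which include known Sox9 targets, 6 were higher and 2 lower in Auxin against Mock, 1 and 3 at the washout step and 5 and 4 in Reintroduction against Mock, with medians of 0.85, -0.66 and 0.53. The fibrillar collagen gene Col11a1 rose by 2.42 in Auxin (1.70 with the length trend removed, 1.76 with length and GC trends removed) and by a further 0.82 after washout, to 10.8 ± 0.396 CPM from 1.17 ± 0.218 in Mock. Matn1 rose by 2.06 in Auxin and fell by 1.23 after washout, Col9a2 rose by 1.36 in Auxin, and Acan, the cartilage proteoglycan aggrecan, fell by 0.93 after washout. Col2a1, the main collagen of cartilage, was at 0.977 ± 0.172 CPM in Mock and 0.256 ± 0.089 in Reintroduction, a log2 fold change of -1.97, and Col11a2 was 1.15 above Mock. The counts called for all of these lists stand beside backgrounds of 73.2%, 50.9% and 68.1% in the 3 comparisons.

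For each tested Sox gene, the 2 genes with the most similar course over the 9 libraries were found by the root mean square difference of centred log2 CPM, among genes reaching a mean of 1 CPM in a group. This is a description, and the 9 libraries share their groups. Sox6 was nearest to Vegfa, a growth factor of blood vessels, at a difference of 0.271, with 2.3, 126.6 and 22.2 CPM in Mock, Auxin and Reintroduction, and to Dsc2, a desmosomal cadherin, at 0.321. Sox3 was nearest to Hpcal4 (0.3) and Lefty1 (0.332), an inhibitor of Nodal signalling with 38.2, 6.99 and 2.82 CPM. Sox21 was nearest to Gpc6 and Mfsd6 (both 0.103), and Sox11 to Acsl3 (0.0734), with 102.5, 51.9 and 126.7 CPM, and Chmp4c (0.0774). The nearest genes were Gm4835 (0.14) and Dimt1 (0.146) for Sox1, Gm6640 (0.0793) and Selenot-ps (0.0795) for Sox4, Ermard (0.0705) and Ppard (0.0747) for Sox5, and Stpg1 (0.396) and Gm6450 (0.411) for Sox8.

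Genes beside the Sox genes did not all share their changes. Within 100 kb of Sox6, 3 of 6 genes were tested. The closest, 1110004F10Rik, lies 601 bp away on the opposite strand and had log2 fold changes of -0.11, -0.05 and -0.16 with auxin, at the washout step and between Reintroduction and Mock, none of which passed the test (edgeR adjusted p = 0.157, 0.576 and 0.0536). It was called lower in Auxin against Mock with the length trend removed (-0.26), with length and GC trends removed (-0.31) and without Auxin replicate 2 (-0.21), and lower in Reintroduction against Mock in 6 alternatives. The other tested neighbours were both called in Auxin against Mock, where 73.2% of all tested genes were called. Gm4353 was lower (-0.64, edgeR adjusted p = 1.94e-06) and Plekha7 higher (0.21, edgeR adjusted p = 0.00487). Within 100 kb of Sox3, 2 of 5 genes were tested, both annotated as processed pseudogenes. Both were called lower in Auxin against Mock, as were 34.8% of all tested genes. They were Gm7076 (-0.49, edgeR adjusted p = 0.00463) and Rpl7l1-ps1 (-1.15, edgeR adjusted p = 4.52e-06). At the washout step Rpl7l1-ps1 rose by 0.49 (edgeR adjusted p = 0.00567), opposite to Sox3, and Gm7076 did not pass the test (-0.17, edgeR adjusted p = 0.321). Sox11 had no other gene of the tables within 100 kb. Within 100 kb of Sox21, 3 of 5 genes were tested. In Auxin against Mock Gm9376 fell by 4.58 (edgeR adjusted p = 3.44e-04), from only 0.251 CPM in Mock. Gpr180 did not pass the test (0.05, edgeR adjusted p = 0.532). Gm4675, a long noncoding RNA gene that overlaps Sox21 on the opposite strand, rose by 1.31 in Auxin against Mock (edgeR adjusted p = 0.00244), and reads were counted without regard to strand. Exon sequence shared with another gene also makes the counts of Sox1 (with Gm25239), Sox4 (with Gm26735) and Sox5 (with Sox5os1) uncertain, as it does those of Sox21. The same holds for Suz12, Sox15, Sox17, 1110004F10Rik and Sox2ot, which is described below. Among the list genes named above it holds for Pou2f1, Pou3f1, Pou5f1, Ncam1, Prom1, Nefl, Nefm, Map2, Tfap2a and Cnp. Of the genes with a similar course it holds for Dimt1, Ermard, Stpg1, Acsl3 and Chmp4c.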

How the data were processed

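Polyadenylated RNA of 9 libraries (TruSeq RNA v2, random primers, actinomycin D, paired-end reads, per the labels' protocols) was analysed from the deposited raw read counts per gene. Per the file headers, the authors' counts come from featureCounts 2.0.6, which summed the exons of each gene on mm10, in paired-end mode without counting pairs once and without a strand setting, so each mate counts and fewer independent fragments stand behind a count. The submitters' processing notes also name Trim Galore 0.6.10, FastQC 0.12.1, Bowtie2 2.5.3 and SAMtools 1.20, without their roles. The aligner's handling of exon junctions is not given in the sources used here, which could affect multi-exon genes more than single-exon ones.

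Symbols were matched by gene identifier (48058 of 48440 genes). Counts were scaled with TMM factors (0.905 to 1.08), filtered with filterByExpr and fitted in 1 edgeR quasi-likelihood model of the 9 libraries with group as the only term (edgeR 4.0.16, limma 3.58.1, DESeq2 1.42.0, R 4.3.3). The common biological coefficient of variation was 9.15%. P-values were two-sided, adjusted by the Benjamini-Hochberg method over 20838 genes and called under 0.05. Standard errors were derived from the F statistic, and CPM and RPKM were computed from the scaled counts. The test was also run on simulated counts in which few genes changed and no length trend was set. That setting differs from these data, so the run does not cover them. The replicate spread is that between the deposited biological replicates.

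The Sox genes and the gene lists were chosen with earlier results of these data known. Named genes are the 10 Sox genes, all other Sox genes, up to 3 called and non-overlapping genes with the smallest p-value per list and comparison, and the 2 genes most like each tested Sox gene. Marker lists are given as summed levels and as counts called in Auxin against Mock, without genes named by that rule, a departure from it. A gene that the rule picks is not reported here. The neighbours and antisense genes were named outside it, after their values were seen. Alternatives were DESeq2 size factors, total counts, no filter, the DESeq2 Wald test, a minimum of 1 CPM in 3 or more libraries, only the 2 groups compared, a replicate block, removal of length trends or of length and GC trends, halved counts, a fold threshold of 2 and leaving out each library in turn. Promoter windows came from RefSeq.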

Additional observations from a re-analysis of the deposited data

How the results depend on the processing

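Removing the length trend from each library reversed Sox4 (-0.18), Sox5 (-0.29) and Suz12 (-0.23) in Auxin against Mock, 1110004F10Rik in Reintroduction against Auxin (0.03), and Sox1 (-0.05), Sox5 (-0.57), Sox11 (-0.19), Sox12 (-0.18) and Sox13 (-0.09) in Reintroduction against Mock. With length and GC trends removed, Sox4 (-0.13), Sox5 (-0.32) and Suz12 (-0.40) reversed in Auxin against Mock and Sox5 (-0.61), Sox11 (-0.18) and Suz12 (-0.21) in Reintroduction against Mock. Total counts without TMM factors reversed Sox8 (0.09) and 1110004F10Rik (0.10) in Auxin against Mock, and moved the median over all genes from 0.05 to 0.26 in that comparison and from 0.026 to 0.157 in Reintroduction against Mock. DESeq2 size factors and the DESeq2 Wald test each gave -0.01 for Sox12 in Reintroduction against Mock. Leaving out 1 library at a time gave -0.02 to 0.27 for Sox4 and -0.75 to 0.29 for Sox8 in Auxin against Mock, -0.11 to 0.02 for 1110004F10Rik in Reintroduction against Auxin and -0.04 to 0.03 for Sox12 in Reintroduction against Mock. The cause of these reversals was not tested. The number of Sox genes called became 3, 2 and 3 in the 3 comparisons when a 2-fold change was required as well. Leaving out 1 library gave 4 to 5 called in Auxin against Mock, 3 to 5 in Reintroduction against Auxin (3 without Auxin replicate 1, in place of 6) and 5 each time in Reintroduction against Mock. Every other alternative kept these counts within 1.5 times. For single Sox genes among the 10, 336 values kept direction and call, 22 lost the call, 4 gained it and 13 reversed.

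Same-numbered replicates did not deviate together (correlations from -0.172 to 0.055, beside -0.177 to 0.239 for different numbers). With 3 libraries a group, these correlations cannot show whether same-numbered libraries were prepared together. With the replicate number as a block, 4 Sox genes were called in Auxin against Mock, 6 at the washout step (Reintroduction against Auxin) and 5 between Reintroduction and Mock, against 5, 6 and 5 without it. Sox5 (0.45, edgeR adjusted p = 0.0648) was the Sox gene no longer called, and among the other named genes the block ended the call of Pou3f4 after washout (1.37, edgeR adjusted p = 0.0562). Depth limits Sox8, Sox9 and Sox10, with at most 20 counts in any library.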

Other observations

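Noncoding transcripts at the Sox loci were chosen for description after their values were seen. Sox2ot, a long noncoding RNA gene that spans Sox2, had 1.46, 1.23 and 1.08 CPM in the Mock libraries, 11.1, 8.53 and 12.3 in Auxin and 4.13, 3.74 and 2.38 in Reintroduction. The 3 groups did not overlap. It rose 8.38-fold in Auxin against Mock (log2 fold change 3.07 ± 0.214, edgeR adjusted p = 1.72e-07, or 2.37 with the length trend removed and 2.28 with length and GC trends removed) and fell by 1.65 ± 0.198 after washout (edgeR adjusted p = 4.33e-05), the same directions as Sox2.

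Sox5os2, an antisense gene within Sox5, had 15, 14 and 20 counts in the Mock libraries and 0 in each of the 6 Auxin and Reintroduction libraries. Against a floor of 3 counts over a group it was at least 14.4-fold lower in Auxin and at least 13.1-fold lower in Reintroduction (edgeR adjusted p = 6.69e-04 and 9.67e-04). These limits cover counting error only and take each count as independent. Both mates of a pair were counted, so the folds that the counts bear out are smaller. Sox5 itself was not called lower in those groups as fitted, but was in Reintroduction against Mock with the length trend removed (-0.57, adjusted p = 0.0235). Reads of the opposite strands were not told apart in the counts.

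Within 100 kb of Sox10, 8 of 11 genes were tested. All 8 were called in Auxin against Mock, beside 73.2% of all tested genes. 1700088E04Rik (2.14), Slc16a8 (1.05), Gm10863 and Micall1 were higher, and Eif3l (-1.09), Ankrd54 (-0.2), Pick1 (-0.16) and Polr2f lower. The closest, Gm10863 at 1551 bp, rose by 0.68 in Auxin against Mock (edgeR adjusted p = 0.00848) and fell by 1.37 after washout (edgeR adjusted p = 2.77e-04). It was low throughout, at 0.691 CPM in Mock, 1.1 in Auxin and 0.438 in Reintroduction. Polr2f, at 3139 bp, fell by 1.34 in Auxin against Mock (edgeR adjusted p = 2.81e-07). Micall1, at 18016 bp, rose by 3.28 (edgeR adjusted p = 8.33e-10). Its counts are uncertain because it shares exon sequence with another gene, as 1700088E04Rik and Pick1 do.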
